A study of Mus musculus with 6 samples.

Results

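The 10 genes described here encode chaperones and folding enzymes of the endoplasmic reticulum, together with Xbp1, a transcription factor that controls such genes. They were taken by name, with earlier results of these data known: Hspa5, Hsp90b1, Calr, Canx, Pdia3, Pdia4, Pdia6, Dnajb9, Herpud1 and Xbp1. All 10 had a row in the table of 24972 genes, and all 10 passed the minimum mean of 10 that left 12477 genes for testing. RNA came from heart cells of MX1gfp mice, a strain with a green fluorescent protein reporter at the interferon-stimulated gene Mx1, and both groups carried it. A group of 3 mice received phosphate-buffered saline as vehicle and another of 3 received doxorubicin, an anthracycline that poisons topoisomerase II, at 25 mg per kg in 1 intraperitoneal injection of 100 microlitres. Hearts were taken 48 hours later, the ventricles were digested with collagenase, and the myocytes settled by gravity without a sort, so other heart cells could remain. The labels give neither age nor sex.

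Proteins that are secreted or placed in membranes fold in the endoplasmic reticulum, where Hsp70 and Hsp90 chaperones, lectin chaperones and protein disulfide isomerases assist them. When unfolded protein builds up, the sensors IRE1, PERK and ATF6 start the unfolded protein response, which raises the chaperones, slows translation and speeds the removal of misfolded protein. In heart muscle the sarcoplasmic reticulum, the store of calcium for contraction, is continuous with this compartment.

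The promoters of chaperone genes hold an endoplasmic reticulum stress element (ERSE), a sequence that ATF6 and NF-Y are known to bind together. It was searched on both strands as CCAAT and CCACG with 9 free bases between them, in RefSeq promoter windows (build GRCm38.p6; mm10 is another name for GRCm38) from 250 bases before to 50 after each start. All 10 genes matched 1 window each. The exact letters were found in 5 of the 10, namely Hspa5, Hsp90b1, Calr, Canx and Pdia6, against 31 of 21879 windows (0.142%) over the genes of the table. The 5 matches are shown because the same 5 genes had the lower values described below, in the values as deposited. With libraries scaled to equal totals only Hspa5 kept groups lower without overlap. Capitals mark the match, in reverse orientation for Calr, and positions count back from the base before the start. The chromosome coordinates in brackets are those of the whole printed stretch, which holds the match and the bases around it. The match lies at -65 to -47 in Hspa5 on the plus strand (chr2:34771840-34772089), at -162 to -144 in Calr on the minus strand (chr8:84847055-84847113), at -145 to -127 in Canx on the minus strand (chr11:50325780-50325838) and at -98 to -80 in Pdia6 on the plus strand (chr12:17266471-17266529). Hsp90b1, on the minus strand, holds a forward match at -212 to -194 (chr10:86705618-86705676) and a reverse one at -107 to -89, of which the first is shown.
Hspa5: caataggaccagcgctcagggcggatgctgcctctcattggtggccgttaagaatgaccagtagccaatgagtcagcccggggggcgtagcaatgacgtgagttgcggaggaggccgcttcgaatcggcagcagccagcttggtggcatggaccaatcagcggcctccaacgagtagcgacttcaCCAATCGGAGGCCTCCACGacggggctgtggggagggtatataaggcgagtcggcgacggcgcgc
Hsp90b1: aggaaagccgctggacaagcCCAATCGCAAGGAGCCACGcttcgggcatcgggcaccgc
Calr: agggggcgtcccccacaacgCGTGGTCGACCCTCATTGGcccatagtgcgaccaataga
Canx: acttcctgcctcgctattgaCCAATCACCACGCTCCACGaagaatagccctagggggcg
Pdia6: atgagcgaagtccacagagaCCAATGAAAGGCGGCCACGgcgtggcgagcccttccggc

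Herpud1 held no exact ERSE. It held the related element ERSE-II at -52 to -42 on the plus strand (printed stretch chr8:94386357-94386407). This element was searched on both strands as ATTGG and CCACG with 1 free base between them, and 10 of the 21879 windows (0.0457%) hold it.
Herpud1: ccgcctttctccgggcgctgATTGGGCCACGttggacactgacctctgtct
The element UPRE, searched as TGACGTGG on both strands, was in 157 windows (0.718%) and in 0 of the 10 genes. A match is a run of letters, not a bound site.

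The values are normalized read counts as the authors deposited them, and they summed to 5410780 to 6498370 in the doxorubicin libraries and to 7217950 to 7500390 in the vehicle libraries. The spacing of the low values put the reads behind them at about 3670000 to 6170000 and 7710000 to 11400000, so the deepest doxorubicin library had fewer reads than the shallowest vehicle one, and effects of depth and of treatment cannot be told apart. The 10 genes were well covered all the same, at about 260 reads for Pdia4 in its shallowest library and 7000 for Hspa5 in its deepest. Doxorubicin replicate 1 stood apart from the other doxorubicin libraries, with Spearman correlations across genes of 0.977 to 0.982 with the vehicle libraries, against 0.860 to 0.914 for replicates 2 and 3. Of the 12477 genes tested with limma, 0 were higher and 0 lower (0% of genes) when p was adjusted by Benjamini-Hochberg and held to 0.05, while 4485 (35.9%) had an unadjusted p under 0.05. Without doxorubicin replicate 1 the adjusted test called 2409 genes higher (19.3%) and 2718 lower (21.8%), and with weights estimated for each library it called 1954 higher (15.7%) and 2318 lower (18.6%). Replicate 1 was the treated library nearest to vehicle, so leaving it out tends to widen differences in advance. The p-values without it, here and below, are given as a description.

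None of the 10 genes passed the adjusted threshold with all 6 libraries. In the values as deposited, Hspa5, Hsp90b1, Calr, Canx and Pdia6 had every doxorubicin library below every vehicle library, and 0 of the 10 had every one above. With libraries scaled to equal totals only Hspa5 kept that separation, and Hsp90b1, Calr, Canx and Pdia6 overlapped. Over all genes tested, groups that do not overlap were found lower in 22.6% and higher in 19.2%. The median log2 fold change of the 10 was -0.22, against -0.0046 over all genes, where a log2 fold change is the mean log2(value + 1) of the doxorubicin libraries less that of the vehicle libraries. An unadjusted p under 0.05 was found in 3 of the 10 (Hspa5, Canx and Pdia6, all lower), a rule that 19.3% of all genes met on the lower side and 16.7% on the higher side. Without doxorubicin replicate 1, limma called 3 of the 10, Hspa5 and Pdia6 lower and Xbp1 higher, and with library weights it called those 3 as well. The weighted log2 fold changes (-0.95, -0.42 and 0.62) were close to those without replicate 1 (-0.98, -0.43 and 0.63). The weighted fit is thus not separate support. Without replicate 1, Herpud1 and Xbp1 joined the genes without overlap, on the higher side, where 31.6% of all genes stood, with 32.9% on the lower side.

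**Figure D1:**
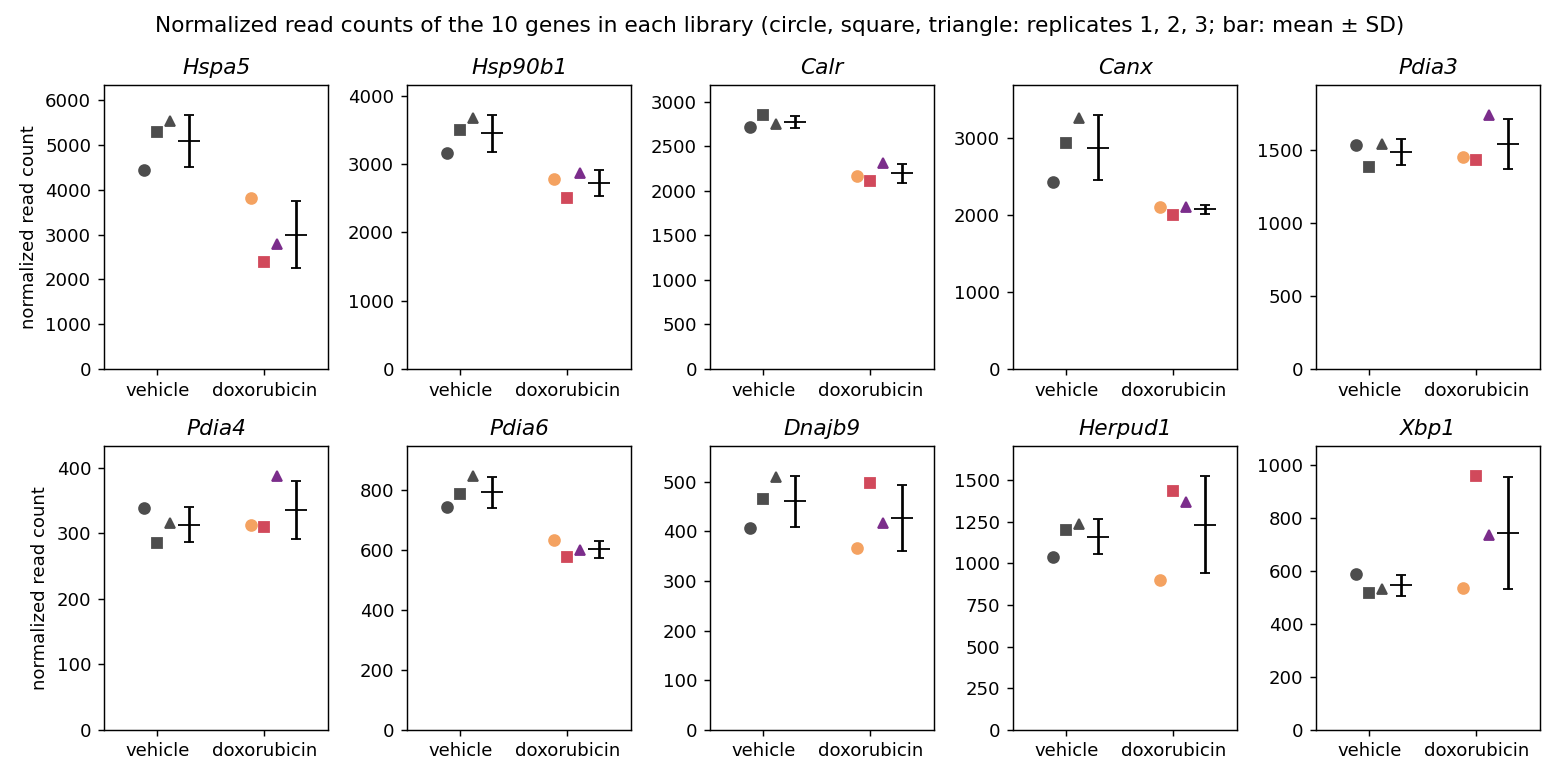
Normalized read counts of the 10 genes, 1 panel a gene, with each library as a point and the mean ± SD of 3 libraries as a bar; the y axes start at 0 and differ in scale. Hspa5 runs from 4449 to 5539 with vehicle and from 2386 to 3831 after doxorubicin, and Xbp1 reaches 957 in doxorubicin replicate 2.

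Hspa5 (chromosome 2, 34772090 to 34776529) encodes BiP, the Hsp70 chaperone of the compartment, which also holds the stress sensors inactive. Its normalized read counts were 4449, 5295 and 5539 with vehicle and 3831, 2386 and 2780 with doxorubicin, in the order of the replicates, as for all genes below. The groups did not overlap, and replicate 1 was the treated library nearest to vehicle. The means were 5094 ± 572 and 2999 ± 747 (SD, n = 3 each), and the log2 fold change was -0.79 (SE 0.24, 95% interval -1.34 to -0.24, limma adjusted p 0.0859). As deposited it was the largest difference in either direction among the 10. That of Xbp1 was larger with equal totals (0.71 for Xbp1, -0.48 for Hspa5) and after quantile normalization (0.48 and -0.44). The groups of Hspa5 overlapped after quantile normalization (limma adjusted p 0.217). Without doxorubicin replicate 1 the difference of Hspa5 was -0.98 (limma adjusted p 0.00566). Leaving out the treated library nearest to vehicle widens the difference in advance. Without doxorubicin replicate 2 or 3 the adjusted p was 0.169 or 0.190, and without a vehicle library it was 0.191 to 0.256. The neighbouring gene Rabepk overlaps Hspa5 in the annotation, and the use of strand in counting is not given in the sources used here.

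Hsp90b1 (chromosome 10, 86690841 to 86705444) encodes GRP94, the Hsp90 chaperone that acts with BiP. Its counts were 3157, 3503 and 3678 with vehicle and 2784, 2506 and 2866 after doxorubicin. All 3 treated libraries were below the lowest vehicle library, and unlike in Hspa5 they lay close together. The log2 fold change was -0.34 (95% interval -0.74 to 0.061, limma adjusted p 0.191).

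Calreticulin and calnexin hold newly made glycoproteins through their sugar chains, and calreticulin also stores calcium in the lumen. Calr (chromosome 8, 84842088 to 84846931) had counts of 2710, 2845 and 2749 with vehicle and 2165, 2109 and 2313 after doxorubicin. These were tight groups set apart from each other, with means of 2768 ± 69.3 and 2196 ± 105 (SD, n = 3 each), and the log2 fold change was -0.33 (95% interval -0.70 to 0.028, limma adjusted p 0.163). Canx (chromosome 11, 50293957 to 50325673), the membrane-bound form, had 2428, 2937 and 3267 with vehicle and 2108, 2007 and 2111 after doxorubicin. The treated libraries were nearly alike and the vehicle libraries spread widely above them. The log2 fold change was -0.46 (95% interval -0.88 to -0.046, limma adjusted p 0.113).

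The protein disulfide isomerases, which form and rearrange disulfide bonds, differed among themselves. Pdia6 (chromosome 12, 17266589 to 17284785), known to act on the sensor IRE1 as well, had counts of 745, 787 and 848 with vehicle and 633, 577 and 601 after doxorubicin, with groups that did not overlap. Its log2 fold change was -0.39 (SE 0.13, 95% interval -0.71 to -0.081, limma adjusted p 0.0933), and -0.43 without doxorubicin replicate 1 (adjusted p 0.0389). Pdia3 (chromosome 2, 121413902 to 121438687), the isomerase that works with calreticulin and calnexin on glycoproteins, had 1534, 1385 and 1540 with vehicle and 1455, 1432 and 1739 after doxorubicin. Pdia4 (chromosome 6, 47796141 to 47813512) had 338, 284 and 316 with vehicle and 312, 309 and 387 after doxorubicin. The groups of both overlapped, and doxorubicin replicate 3 held the highest value of each. The log2 fold changes were 0.049 for Pdia3 (95% interval -0.32 to 0.41) and 0.097 for Pdia4 (-0.26 to 0.46), with limma adjusted p of 0.842 and 0.671. In the annotation Atp6v1c2 overlaps Pdia6, Catsper2 overlaps Pdia3 and Mir704 overlaps Pdia4. The unknown use of strand in counting is thus a limit here as for Hspa5.

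Dnajb9 (chromosome 12, 44205897 to 44210068) encodes ERdj4, a J-domain partner of BiP and a target of spliced XBP1. Its counts were 408, 465 and 509 with vehicle and 367, 498 and 417 after doxorubicin, with overlapping groups and a log2 fold change of -0.11 (95% interval -0.50 to 0.28, limma adjusted p 0.649). Herpud1 (chromosome 8, 94386429 to 94395371) encodes a membrane protein of the complex that removes misfolded proteins. Its counts were 1039, 1199 and 1238 with vehicle and 898, 1433 and 1368 after doxorubicin. Doxorubicin replicate 1 was thus below every vehicle library and replicates 2 and 3 above every one. The log2 fold change was 0.063 (95% interval -0.43 to 0.56, limma adjusted p 0.849), and 0.28 without replicate 1 (adjusted p 0.177).

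Xbp1 (chromosome 11, 5520641 to 5525993) encodes the transcription factor whose mRNA IRE1 splices under stress. Its counts were 588, 516 and 529 with vehicle and 534, 957 and 735 after doxorubicin. Replicates 2 and 3 lay above every vehicle library and replicate 1 within their range. The means were 544 ± 38.3 and 742 ± 212 (SD, n = 3 each), and the log2 fold change was 0.41 (SE 0.22, 95% interval -0.10 to 0.92, limma adjusted p 0.213). Without doxorubicin replicate 1 it was 0.63 (adjusted p 0.0175), and without replicate 2 it was 0.21 (adjusted p 0.465). A count per gene does not separate the spliced from the unspliced mRNA, so the activity of IRE1 was not measured.

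**Figure D2:**
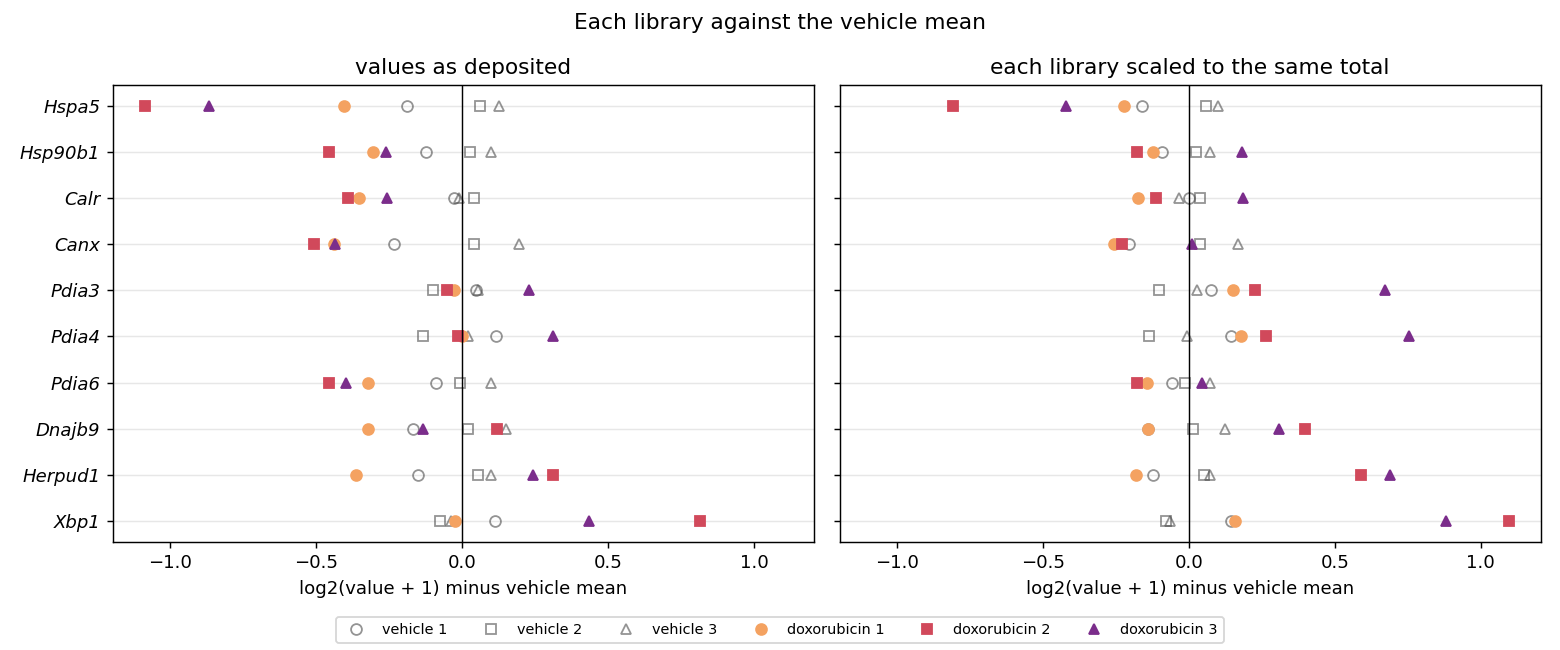
Each library's log2(value + 1) minus the vehicle mean for the 10 genes, with values as deposited (left) and with each library scaled to the same total (right); open symbols are vehicle and filled symbols doxorubicin libraries. Hspa5 is lowest in doxorubicin replicate 2 (-1.09 as deposited), and Xbp1 is highest there (0.82).

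Because the doxorubicin totals were smaller, the scaling matters for these genes. Scaling each library to the same total moved the median of all genes to 0.29 and turned the split of non-overlapping genes from 2401 higher and 2820 lower to 4584 higher (36.7%) and 1258 lower (10.1%). Among the 10, Hspa5 alone kept groups lower without overlap, with a log2 fold change of -0.48 (limma adjusted p 0.127). Hsp90b1, Calr, Canx and Pdia6 then overlapped, at -0.040, -0.033, -0.16 and -0.091, all below the shifted median. Pdia3, Pdia4 and Xbp1 became higher without overlap, at 0.35, 0.40 and 0.71 (adjusted p 0.186, 0.159 and 0.0842). The median of the 10 was 0.078 on this scale, again below that of all genes.

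A share within the 10 genes does not depend on how a library was scaled. Hspa5 held 25.6%, 27.6% and 27.4% of the summed value of the 10 with vehicle, and 25.4%, 16.8% and 18.2% with doxorubicin. It was the leading gene in all vehicle libraries and in doxorubicin replicate 1, and in doxorubicin replicates 2 and 3 it held less than Hsp90b1, which had 17.6% and 18.7%. Hsp90b1 itself kept a nearly even share of 18.1% to 18.2% with vehicle and 17.6% to 18.7% after doxorubicin. The share of Xbp1 was 3.38%, 2.68% and 2.62% with vehicle and 3.54%, 6.73% and 4.80% after doxorubicin, so that here the groups did not overlap. The same held for Pdia3, with 7.21% to 8.82% against 9.65% to 11.4%, and for Pdia4, with 1.48% to 1.95% against 2.07% to 2.53%. Shares of 1 sum are tied to each other, so a smaller share of Hspa5 by itself makes those of other genes larger, and the values of Pdia3 and Pdia4 as deposited overlapped. In Hspa5, Xbp1, Pdia3 and Pdia4, the 4 genes whose shares did not overlap, the exact two-sided permutation test gave p = 0.1, the smallest that 3 libraries against 3 allow (0.25 after adjustment over the 10 shares). The share of Herpud1 was 5.98% to 6.24% with vehicle, 5.95% in doxorubicin replicate 1, just under that range, and 10.1% and 8.93% in replicates 2 and 3. The ratio of Hspa5 to Xbp1, chosen after its values were seen, was 7.57 to 10.5 with vehicle and 7.17, 2.49 and 3.78 after doxorubicin.

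**Figure D3:**
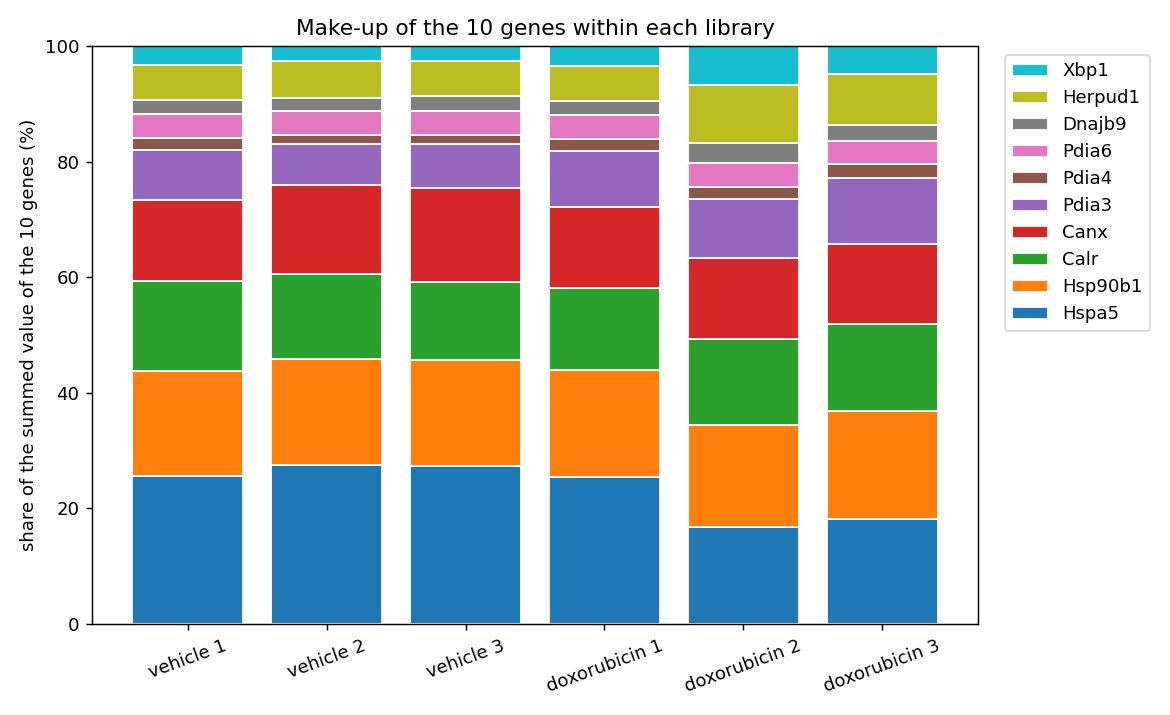
Make-up of the summed value of the 10 genes in each library, in percent, with 1 stacked bar a library starting at 0. The Hspa5 block at the foot is 25.4% in doxorubicin replicate 1 and 16.8% and 18.2% in replicates 2 and 3, where the Xbp1 block at the top is 6.73% and 4.80%.

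Per kilobase of transcript, which allows levels to be compared between genes, Hspa5 was highest with vehicle at a mean of 1950, followed by Calr (1267) and Hsp90b1 (1220), which were within their spread of each other. Canx (672), Herpud1 (594) and Pdia3 (537) formed a middle tier, and Pdia6 (365), Xbp1 (256), Dnajb9 (187) and Pdia4 (130) followed. Neighbours in the order overlapped from Calr to Hsp90b1 and from Canx to Pdia3, and the last 4 genes were each apart from the next. In doxorubicin replicate 1 Hspa5 (1466) stood above Calr (991) and Hsp90b1 (985), as with vehicle. In replicate 2 Calr (966) was above Hspa5 (913), and in replicate 3 Hspa5, Calr and Hsp90b1 stood at 1064, 1059 and 1014. Xbp1 was below Pdia6 in every vehicle library and in doxorubicin replicate 1, and above it in replicate 2 (450 against 265) and replicate 3 (345 against 276).

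In gene-by-gene likeness over the 6 libraries, measured as the root mean square difference of log2 values centred on the vehicle mean, the 3 genes nearest to Hspa5 among 8224 were Il10rb (0.038), Tfam (0.053) and Nfix (0.072). The nearest of the other 9 genes was Canx, at rank 1132. Nearest to Xbp1 were Sdc2 (0.034), Pias1 (0.034) and Mxi1 (0.047), and of the 9 others Herpud1, at rank 1349. More than 1000 other genes were thus nearer to each than any of the 10.

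The wider machinery was read from 7 lists of 85 genes in all, of which 83 were tested. Of these, 12 were higher and 9 lower without overlap (14.5% and 10.8%, against the 19.2% and 22.6% of all genes given above), and the median log2 fold change was 0.0027. None passed the adjusted threshold with all libraries, and without doxorubicin replicate 1 limma called 12 higher and 2 lower, where it called 19.3% and 21.8% of all genes. With equal totals 36 were higher (43.4%) and 1 lower (1.20%) without overlap, against 36.7% and 10.1% of all genes.

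Among 9 stress sensors and their effectors, 3 were higher and 0 lower without overlap (33.3% and 0%, against 19.2% and 22.6% of all genes). The median was 0.28. Eif2ak3, which encodes PERK, had counts of 87.9, 102 and 89.9 with vehicle and 113, 189 and 188 after doxorubicin (log2 fold change 0.76, limma adjusted p 0.0859). It was 1.01 without doxorubicin replicate 1 (adjusted p 0.00238). Ern1, which encodes IRE1, differed by 0.44 (adjusted p 0.228), and Atf6 by -0.31 (adjusted p 0.284). The PERK effectors Atf4 and Ddit3 had 607 to 846 and 97.0 to 125 with vehicle, and 767 to 845 and 82.7 to 128 after doxorubicin. The groups of both overlapped, with log2 fold changes of 0.12 and -0.054 (limma adjusted p 0.617 and 0.870).

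Of 12 partners of the BiP cycle, 0 were higher and 2 lower without overlap (0% and 16.7%, against 19.2% and 22.6% of all genes). Sil1, a nucleotide exchange factor, was the lowest at -0.36 (adjusted p 0.174), and Manf, a secreted stress-induced factor, was at -0.27 (adjusted p 0.204). Hyou1, the large Hsp70 of the lumen, had a log2 fold change of -0.23, Sdf2l1 -0.063 and Creld2 -0.032, all with overlapping groups. The J-domain partners Dnajc10 and Dnajc3 stood on the other side, at 0.52 and 0.41 (limma adjusted p 0.11 and 0.15), also with overlapping groups. They were the 2 genes of this list that limma called without doxorubicin replicate 1, both higher (adjusted p 0.00698 and 0.00991). In that fit 4 genes were higher and 2 lower without overlap (33.3% and 16.7%, against 31.6% and 32.9% of all genes). Of 13 further oxidoreductases, 1 was higher and 1 lower without overlap (7.69% each, against 19.2% and 22.6% of all genes). P4hb, the founding disulfide isomerase, had counts of 1902 to 2129 with vehicle and 1891 to 2041 after doxorubicin (log2 fold change -0.028, adjusted p 0.907). Erp44, a retention factor, was at 0.063, and Txndc11 at -0.30. Qsox1, a sulfhydryl oxidase, had the largest fold change of the wider lists, though its groups overlapped, at 240, 286 and 300.3 with vehicle and 290, 1130 and 750 after doxorubicin (1.19, limma adjusted p 0.108). Its fold change without doxorubicin replicate 1 was 1.74 (limma adjusted p 0.000661). In that fit 5 genes of this list were higher and 3 lower without overlap (38.5% and 23.1%, against 31.6% and 32.9% of all genes).

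Among 19 tested genes for the disposal of misfolded proteins, 3 were higher and 3 lower without overlap (15.8% each, against 19.2% and 22.6% of all genes). The lectins that recognise such proteins differed in direction: Os9 had 415, 475 and 384 with vehicle and 510, 740 and 989 after doxorubicin (log2 fold change 0.77, limma adjusted p 0.0875), and Erlec1 had 385, 415 and 443 with vehicle and 322, 272 and 239 after doxorubicin (-0.58, adjusted p 0.0859). Without doxorubicin replicate 1 both passed, with adjusted p of 0.00327 and 0.00728. Of 18 genes for entry into the compartment, 2 were higher and 3 lower without overlap (11.1% and 16.7%, against the same 19.2% and 22.6%). They were led by Sec62 at 0.45 (limma adjusted p 0.0916) and by Dad1, an oligosaccharyltransferase subunit, at -0.47 (adjusted p 0.126). Of 6 tested genes of the glycan cycle, 2 were higher without overlap (33.3%, against 19.2% of all genes), led by Man1b1 at 0.39. Of 6 prolyl isomerases only Ppib was (16.7%), at 0.37.

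**Figure D4:**
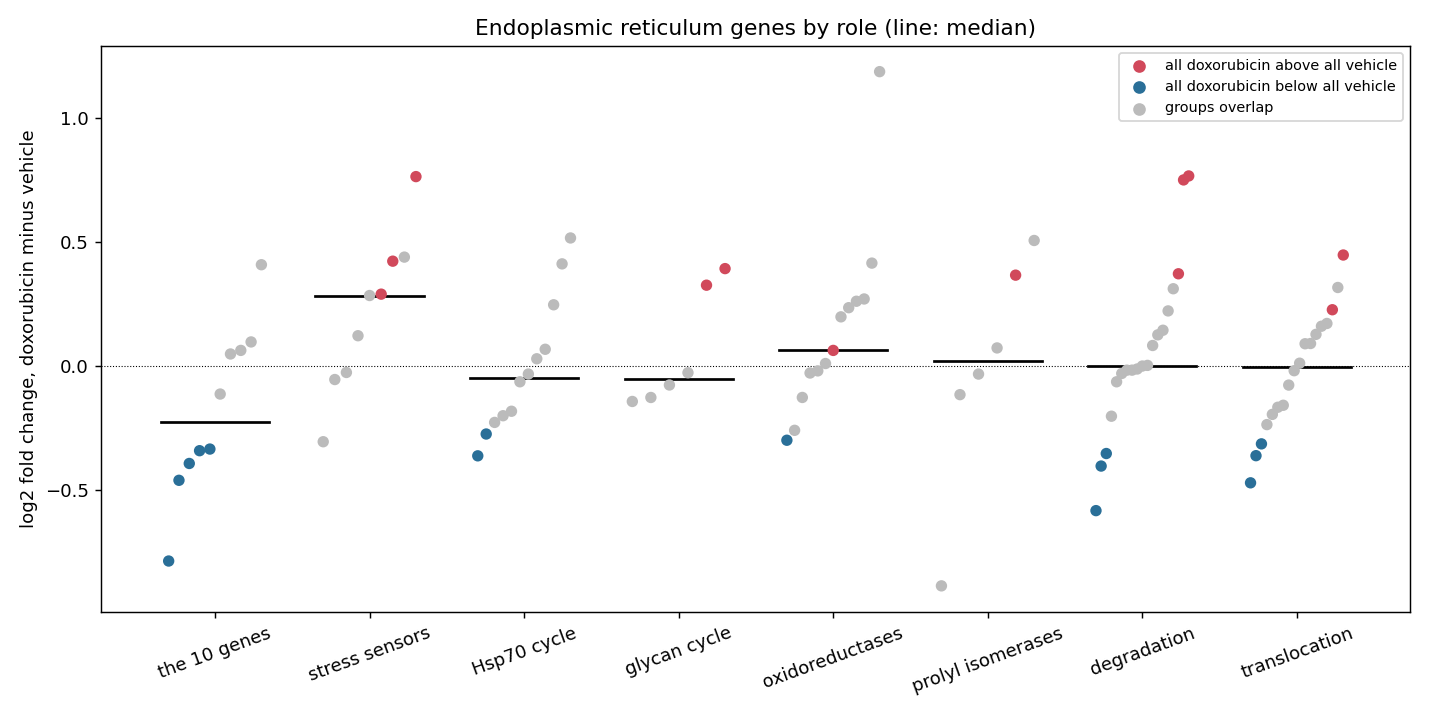
Log2 fold change of each tested gene, doxorubicin minus vehicle, for the 10 genes and the 7 wider lists, coloured by whether the groups overlap, with a line at each median. The 5 blue points of the first column are Hspa5, Canx, Pdia6, Hsp90b1 and Calr (-0.79 to -0.33), and the sensors have a median of 0.28.

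The exact ERSE letters were also read in the rest of the table. Besides the 5 chaperones, 10 tested genes held the exact letters in their promoter window, and 6 of these had a positive and 4 a negative log2 fold change, with a median of 0.21. In 2 of the 10 the groups were higher without overlap, and in 0 were they lower, against 19.2% and 22.6% of all genes. With equal totals 9 were positive and 1 negative, 5 were higher and 0 lower without overlap (36.7% and 10.1% of all genes), and the median was 0.51, against 0.29 over all genes. Among them, with log2 fold changes as deposited, were the BiP partner Dnajc3 (0.41), Creld2 (-0.032) and Syvn1 (0.0027), the ubiquitin ligase of the disposal complex. The coincidence of the element with lower values in the 10 genes was noticed after the values were seen and is given as a description. It holds for the values as deposited, while with equal totals only Hspa5 was lower without overlap.

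Markers of cell types moved with treatment in the same libraries. The summed value of 10 cardiomyocyte markers was 643988 to 747253 with vehicle and 554322, 189311 and 160680 in doxorubicin replicates 1 to 3, and all 10 had a negative log2 fold change. The 10 fibroblast markers summed to 14493 to 17902 with vehicle and to 21144, 55831 and 44878 after doxorubicin. Of these, 9 had a positive log2 fold change and 5 were higher without overlap, and most of the sum came from Gsn (31666 and 27369 in replicates 2 and 3) and Dcn (18072 and 11326). The collagen gene Col3a1 was at 1412 to 2268 with vehicle and at 2220, 740 and 1184 after doxorubicin, and Col1a1 and Postn differed by 0.18 and 0.037. The 10 endothelial markers summed to 34063 to 45032 and to 51387, 65930 and 72122, and the 10 macrophage markers to 2583 to 2791 and to 4238, 7421 and 15615. Most of the endothelial sum came from Cd36 (34732 and 31547 in replicates 2 and 3) and Fabp4 (11240 and 14691). Kdr was at 3448 to 4340 with vehicle and at 5139, 2159 and 3401 after doxorubicin, and the groups of Cdh5 overlapped. A positive log2 fold change was found in 9 of the endothelial and all 10 of the macrophage markers. Hspa5 was lowest, and Xbp1 and Herpud1 highest, in the 2 libraries with the lowest cardiomyocyte and highest fibroblast sums. In doxorubicin replicate 1 the cardiomyocyte sum was -0.33 from the vehicle mean on the log2 scale. Hspa5, Canx, Calr and Herpud1 were there at -0.40, -0.44, -0.35 and -0.36. Hsp90b1, Pdia6 and Dnajb9 were at -0.30, -0.32 and -0.32, and Pdia3, Pdia4 and Xbp1 at -0.029, -0.0018 and -0.024. In bulk RNA, fewer cells of a type and less RNA per cell cannot be told apart, and the part of cell make-up in these differences was not tested. Of the plasma cell markers, Jchain and Mzb1 were at 0 to 8.42 in every library, Sdc1 was at 58.5 to 70.1 with vehicle and 87.5 to 319 after doxorubicin, and the sum of the 6 was 117 to 133 and 155 to 355. The lymphocyte markers summed to 10.4 to 77.6, the mural markers to 9861 to 14629, the neutrophil markers to 10.5 to 21.7 with vehicle and 55.0 to 563 after doxorubicin, and the erythroid markers to 250 to 9027, with their peak in doxorubicin replicate 1.

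**Figure D5:**
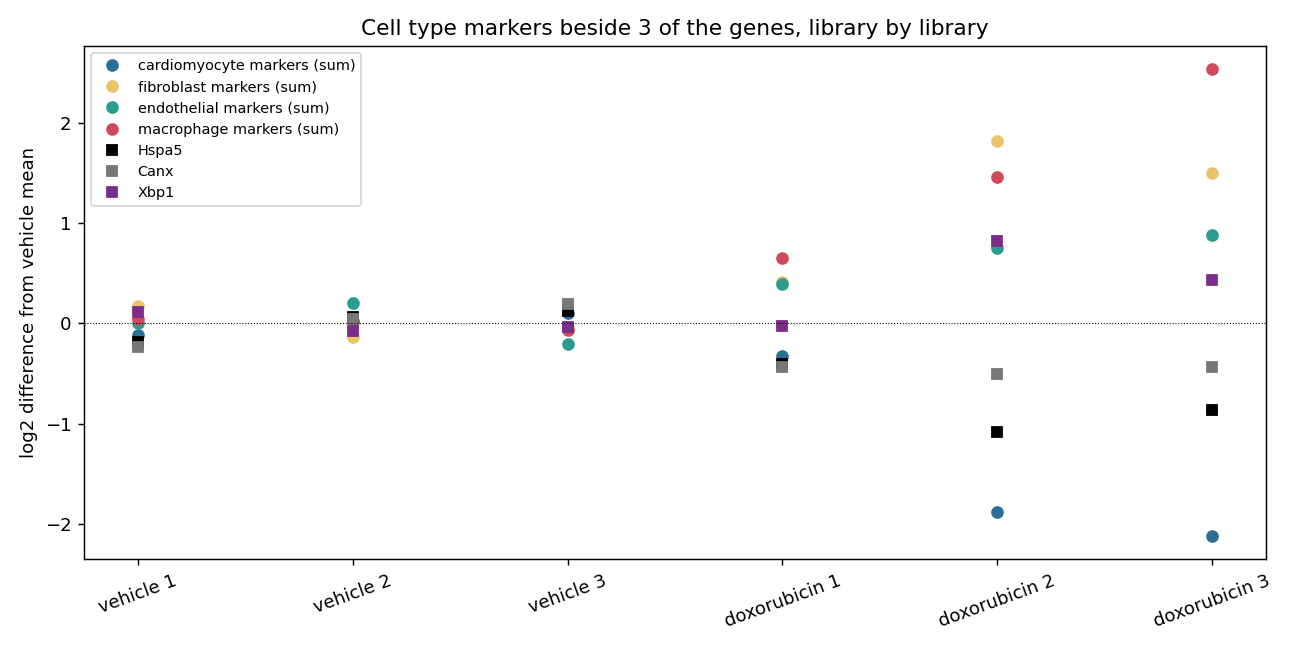
Log2 difference of each library from the vehicle mean for the summed markers of 4 cell types (circles) and for Hspa5, Canx and Xbp1 (squares). The cardiomyocyte sum is at -0.33, -1.88 and -2.11 in doxorubicin replicates 1 to 3, where Canx stays at -0.44 to -0.51 and Hspa5 is at -0.40, -1.09 and -0.87.

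Transcripts of Xist and of the Y chromosome divide the libraries in another way than treatment does, with vehicle replicate 3 and doxorubicin replicates 1 and 3 in 1 class. Within that class, the difference of Hspa5 was -0.76 and that of Xbp1 0.24, and within the other class -1.02 and 0.80. The lower values of Hsp90b1, Calr, Canx and Pdia6 had the same sign in both classes, at -0.63 to -0.30 and -0.41 to -0.40. The sign differed between the classes for Dnajb9 (-0.38 and 0.19), Herpud1 (-0.16 and 0.36), Pdia3 (0.046 and -0.026) and Pdia4 (0.14 and -0.0065). These are values without a test, since each class holds only 1 library of a group.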

How the data were processed

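RNA was sequenced from 6 libraries, 3 vehicle and 3 doxorubicin, grouped by sample title. Per the labels' series design, STAR aligned the reads to mm10 (RefSeq); the submitters' processing notes give STAR 2.6.1a and list Salmon without a role. The authors deposited normalized read counts per gene, treated here as a signal with no negative values. How they were scaled and counted, and whether strand was used, is not given in the sources used here. Low values lay within 0.1 of whole multiples of a library's most common low value in 80.0% to 92.5% of cases, so whole reads were not recovered and no count test was used.

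Values were used as deposited. Genes with a mean of at least 10 were tested on log2(value + 1) with limma 3.58.1 in R 4.3.3 (empirical Bayes with trend, two-sided, Benjamini-Hochberg over 12477 genes, threshold 0.05). SD and n are over libraries, with 3 mice a group per the series design; nothing says outright that a library is 1 mouse. Transcript lengths are medians over GENCODE M21 transcripts with a RefSeq mRNA. Promoters and coordinates are RefSeq, GRCm38.p6. The fit was tested on simulated data in which both groups had the spread of the vehicle libraries. The planted changes were larger than those of the 10 genes as deposited, and no treated library was near to vehicle. That test therefore does not show how the fit performs on these data. The members, lists and marker genes were chosen with earlier results of these data known. Of the wider lists, the genes named are the largest non-overlapping rise and fall of each list plus Atf4, Ddit3, Ern1, Atf6, Eif2ak3, Hyou1, P4hb, Sdf2l1, Manf and Creld2; Dnajc3, Dnajc10, Syvn1, Qsox1 and the single marker genes were named after their values were seen. Vimp and Ufd1l were matched by RefSeq synonym. Alternatives of pseudocount, filter, scaling, moderation, weights, covariates and left-out libraries are in the closing section. Figures used matplotlib 3.10.9.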

Additional observations from a re-analysis of the deposited data

How the results depend on the processing

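Each of the 10 genes was read under 19 alternatives. Some of these leave the log2 fold change of a gene as it was. They are the changes of filter, the fits without trend or with robust moderation, and the replicate block. The looser threshold for adjusted p is not a refit and leaves it unchanged as well. A kept sign was fixed in advance in these alternatives, so only the others test it. Hspa5 (-0.98 to -0.44), Canx (-0.58 to -0.16), Pdia6 (-0.44 to -0.091), Hsp90b1 (-0.40 to -0.016), Calr (-0.37 to -0.033) and Xbp1 (0.21 to 0.71) kept their sign in all 19. The sign turned for Dnajb9 with equal totals (0.19), for Pdia3 without vehicle replicate 2 (-0.0012) or doxorubicin replicate 3 (-0.041), for Pdia4 without doxorubicin replicate 3 (-0.0088, against up to 0.16 without vehicle replicate 1), and for Herpud1 without vehicle replicate 1 (-0.013), doxorubicin replicate 2 (-0.060) or doxorubicin replicate 3 (-0.027), against 0.28 without doxorubicin replicate 1. The share of Hsp90b1 turned to -0.20 points per transcript length, and to -0.021 or -0.15 without doxorubicin replicate 1 or 3, with 0.39 without replicate 2; that of Calr turned to -0.16 per transcript length, and to -0.43 or -0.066 without vehicle replicate 3 or doxorubicin replicate 3, with 0.56 without vehicle replicate 1.

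Library weights gave 1954 genes higher and 2318 lower, with 3 of the 10 genes (Hspa5, Pdia6 and Xbp1) and 10 of the wider lists past the threshold. A threshold of 0.10 gave 1383 and 1639, with 2 and 4. Over fits that leave out 1 library, genes higher ran from 0 to 2409 and lower from 0 to 2718, with 0 to 3 of the 10 and 0 to 14 of the wider lists; only doxorubicin replicate 1 gave more than 1 gene when left out. Groups did not overlap in 2 of the 10 genes after quantile normalization (Pdia3 higher, Pdia6 lower) and in 5 to 7 with a library left out, and in shares in 4 to 7. The 7 genes were found without doxorubicin replicate 1, where 31.6% of all genes were higher and 32.9% lower without overlap. Fewer libraries make separation easier. For the other fits the percentage over all genes is not given here. The causes were not tested. The replicate block gave 0 genes higher and 0 lower and changed no call; same-numbered libraries did not deviate together (correlations -0.13, 0.033 and -0.093). The doxorubicin libraries were the shallower ones, and the effect of depth on the 10 genes was not tested.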
